A study of Homo sapiens with 12 samples.

Results

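The 10 genes described here encode amino acid carriers of the cell surface: SLC7A5, SLC3A2, SLC7A11, SLC7A1, SLC1A3, SLC1A4, SLC1A5, SLC38A1, SLC38A2 and SLC6A9. They were chosen by name from the 63241 genes of the deposited count table, and each was found there under its symbol. The table holds RNA sequencing of polyadenylated transcripts from T98G and U251 cells, both established human glioblastoma lines. The groups were T98G PEPD-OE, T98G NC, U251 PEPD-OE and U251 NC, with 3 libraries in each and 12 in all. PEPD-OE stands for over-expression of PEPD, the gene of peptidase D (prolidase), which releases proline from dipeptides. NC is not expanded in the labels, which name no vector and do not say whether the cells were clones or pools. Nor is it stated that replicates came from separate cultures, so p-values may measure only technical spread.

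Most of these carriers move amino acids across the plasma membrane by exchange or by coupling to sodium. SLC3A2 (CD98 heavy chain) is a single-pass glycoprotein that pairs with a transporting light chain: with SLC7A5 (LAT1) it exchanges large neutral amino acids such as leucine, and with SLC7A11 (xCT) it takes up cystine in return for glutamate, which feeds glutathione synthesis. Several of these genes are known targets of ATF4, the transcription factor of the amino acid and endoplasmic reticulum stress responses, and SLC7A11 is also a known target of NRF2, the factor of the oxidative stress response.

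PEPD itself was at 156 to 175 CPM in the T98G PEPD-OE libraries and at 2.6 to 19 CPM in T98G NC, and at 167 to 187 CPM in U251 PEPD-OE and at 6.44 to 13.2 CPM in U251 NC. CPM are counts scaled to a library of 1e6 after TMM scaling. Library totals ran from 464056 to 924204 counts, so that 3 counts in a library equalled 3.2 to 6.33 CPM. Of the 9 astrocytic and glioma markers, 6 passed the filter on low counts. SOX2 and NES averaged 276 and 348 CPM in U251 PEPD-OE against 0.519 and 2.48 CPM in T98G PEPD-OE, CD44 was higher in T98G (723 against 361 CPM), and S100B, AQP4 and ALDH1L1 were at or near 0 in both lines. With PEPD over-expression SOX9 and VIM fell in T98G (log2 -1.37 and -0.61), and GFAP, SOX2 and VIM fell in U251 (log2 -0.62, -0.47 and -0.41). These were 2 and 3 of the 6 tested, where 14.7% and 4.42% of all genes tested fell. GFAP in T98G (log2 0.42, adjusted p = 0.0816) and SOX9 in U251 (log2 0.14, adjusted p = 0.696) were above 0 and did not pass the test. Of the markers of other cell types, the epithelial gene KRT8 fell in T98G (log2 -0.80, adjusted p = 0.00321), the neuronal gene SYT1 rose in U251 (log2 1.22, adjusted p = 0.0186), and none of macrophages, endothelium or oligodendrocytes passed the filter. The other neuronal markers, RBFOX3 and SNAP25, were too low to test. They averaged 0.712 and 2.72 CPM in U251 PEPD-OE, below their 1.26 and 3.75 CPM in U251 NC. T98G PEPD-OE replicate 2 and T98G NC replicate 2 stood apart in holding counts under leukocyte and endothelial genes: 25 and 35 under PTPRC, 6 and 4 under CD14, 3 and 4 under AIF1, and 10 and 8 under PECAM1. The other 10 libraries held at most 5, 1, 0 and 3 counts of these genes. Summed macrophage markers ran from 4.27 to 54.5 CPM in T98G PEPD-OE, from 0 to 57.2 CPM in T98G NC and from 1.28 to 9.04 CPM in U251, with C1QA and C1QB at 0 throughout. Without both of these T98G libraries, a setting chosen after seeing the data, 5 carriers were called in T98G, 7 in U251 and 6 for the difference between lines. The share of counts under mitochondrial genes was 7.95 to 9.73% in T98G PEPD-OE and 5.07 to 6.14% in T98G NC. The share under TALAM1, antisense to MALAT1, was 3.48 to 4.18% and 1.11 to 1.23% there. In U251 the mitochondrial shares were 3.57 to 5.3% in PEPD-OE and 4.5 to 5.34% in NC, and those of TALAM1 were 1.75 to 2.3% and 2.31 to 2.87%. With these genes, MALAT1 and BEST1 (opposite the ferritin gene FTH1) left out, 7 carriers were called in T98G and 7 in U251.

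In T98G cells the carriers were mostly lower with PEPD over-expression, and in U251 cells they were mostly higher. All 10 passed the filter on low counts. In T98G, 6 carriers fell (SLC3A2, SLC7A5, SLC6A9, SLC38A1, SLC7A1 and SLC1A5), 1 rose (SLC38A2) and 3 did not pass the test. The 6 lower and 1 higher carriers compare with 14.7% and 17.7% of the 8773 genes tested, and 32.3% in either direction. DESeq2 called 3 of the 6 lower ones (SLC3A2, SLC7A5 and SLC38A1) and not SLC38A2. In U251, 7 carriers rose (SLC1A4, SLC7A5, SLC38A1, SLC1A5, SLC3A2, SLC7A11 and SLC38A2) and none fell at an adjusted p under 0.05 in edgeR's quasi-likelihood test, nor at an unadjusted p under 0.05 or in DESeq2. DESeq2 called 4 of the 7 (SLC7A5, SLC38A1, SLC1A5 and SLC3A2) and gave no adjusted p for 4 carriers, SLC1A4 among them. Of all genes tested, 4.13% rose and 4.42% fell there, 8.55% in all. The median log2 fold change of the carriers was -0.73 in T98G and 0.86 in U251, against 0.00 over all genes tested in each line. The PEPD-OE and NC libraries did not overlap for 7 carriers in T98G, where 43.5% of all genes tested had no overlap, and for 7 in U251, where 22.4% had none. The change itself differed between the lines for 8 carriers, all of them lower in T98G relative to U251, while 13.6% of all genes tested were called in that direction, 14.1% in the opposite one and 27.7% in either. DESeq2 called 5 of them. The other two were SLC38A2 and SLC1A3.

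The summed level of the 10 genes was 1129, 1143 and 1208 CPM in the T98G NC libraries and 719, 681 and 652 CPM in T98G PEPD-OE. In U251 the sum was 395, 395 and 424 CPM in NC and 699, 790 and 747 CPM in PEPD-OE. The NC groups lay on either side of both PEPD-OE groups, whose libraries overlapped each other. In bulk RNA, fewer cells with a transcript and less of it per cell cannot be told apart.

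**Figure D1:**
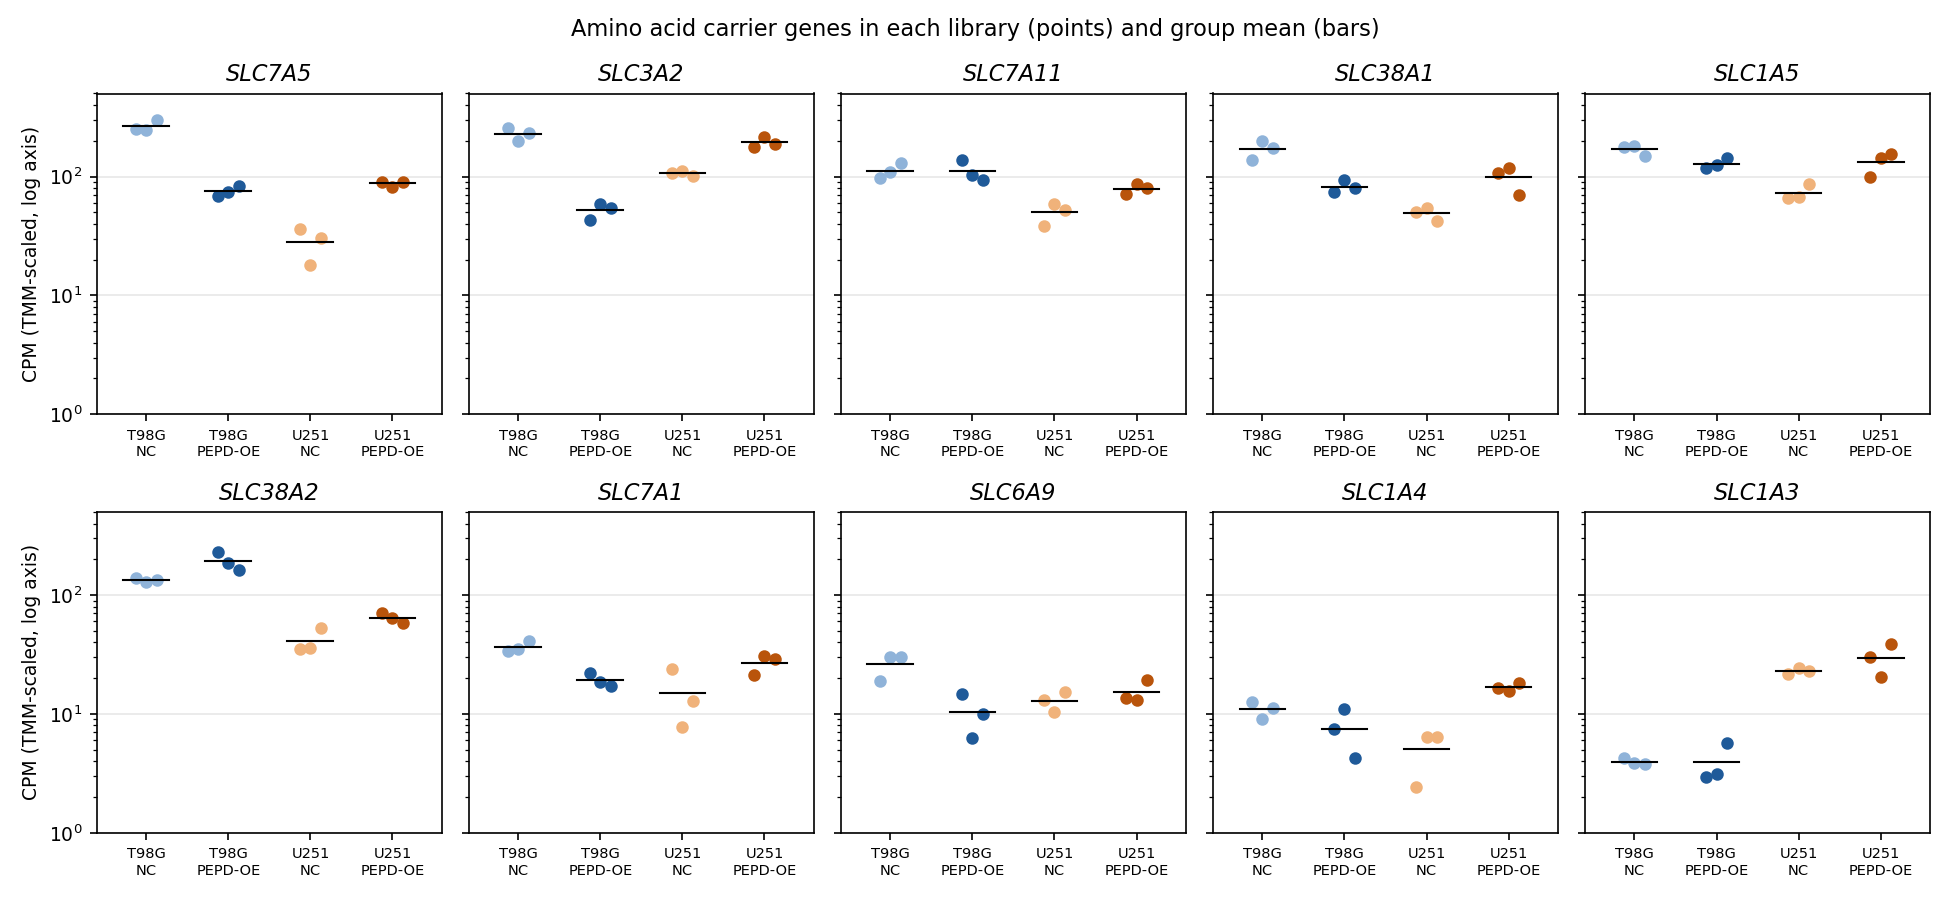
Level of each carrier in every library, in CPM on a log axis, by group. Points are libraries and horizontal bars are group means. SLC7A5 is highest in T98G NC (246 to 301 CPM) and lowest in U251 NC (18 to 36.1 CPM), with both PEPD-OE groups between them.

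The windows around the start sites of the genes are shown for 4 carriers: the LAT1 pair, whose change differed most between the lines, SLC1A4, with the largest rise in U251, and SLC38A2, the carrier that was higher in both lines. Each window runs 5′ to 3′ on the strand of the gene, from 250 bases before the start site to 20 bases after it, and comes from RefSeq (GRCh38.p14). The SLC7A5 window is chr16:87869488-87869757 on the minus strand, that of SLC3A2 is chr11:62881449-62881718 on the plus strand (1 of its 3 windows), that of SLC1A4 is chr2:64989149-64989418 on the plus strand (1 of its 2), and that of SLC38A2 is chr12:46372754-46373023 on the minus strand. Capitals mark matches to the motifs searched.
SLC7A5: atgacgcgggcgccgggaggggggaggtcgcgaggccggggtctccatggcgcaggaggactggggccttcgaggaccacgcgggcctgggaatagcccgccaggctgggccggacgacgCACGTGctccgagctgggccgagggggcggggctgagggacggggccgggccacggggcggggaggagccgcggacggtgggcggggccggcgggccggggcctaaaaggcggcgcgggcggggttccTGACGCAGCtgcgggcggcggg
SLC3A2: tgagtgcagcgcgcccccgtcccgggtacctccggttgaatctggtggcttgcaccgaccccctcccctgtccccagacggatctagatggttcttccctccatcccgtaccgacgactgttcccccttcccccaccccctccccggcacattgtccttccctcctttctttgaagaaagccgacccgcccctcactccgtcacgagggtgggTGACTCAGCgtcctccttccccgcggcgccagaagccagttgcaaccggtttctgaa
SLC1A4: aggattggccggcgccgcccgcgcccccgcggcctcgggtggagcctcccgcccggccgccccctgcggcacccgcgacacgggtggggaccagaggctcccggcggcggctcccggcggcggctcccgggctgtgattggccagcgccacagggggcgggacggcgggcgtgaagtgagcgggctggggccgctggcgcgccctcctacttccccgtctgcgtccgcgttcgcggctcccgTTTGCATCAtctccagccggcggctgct
SLC38A2: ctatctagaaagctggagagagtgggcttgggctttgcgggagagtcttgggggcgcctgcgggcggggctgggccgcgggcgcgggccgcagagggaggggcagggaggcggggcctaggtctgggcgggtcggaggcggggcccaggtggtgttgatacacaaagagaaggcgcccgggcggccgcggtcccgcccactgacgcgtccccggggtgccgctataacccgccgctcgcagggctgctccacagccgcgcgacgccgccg
Both strands were searched for TGATGNAAN, the form bound by ATF4 with C/EBP proteins, for TTGCATCA, which overlaps it, for TGACNNNGC, the core of the antioxidant response element bound by NRF2, and for CACGTG, an E-box. In SLC7A5 the E-box begins at -130 and TGACGCAGC at -2, in SLC3A2 TGACTCAGC begins at -37, and in SLC1A4 TTTGCATCA begins at -8, all relative to the start site. The other windows of SLC3A2 and SLC1A4 hold no match. The SLC38A2 window holds none of these letters, which says nothing of the factors. Of 35116 such windows of all genes, 3.36%, 0.832%, 12% and 6.78% held the 4 motifs in that order. Of the 17 windows of 9 carriers, 5, 3, 5 and 2 held them. Among these, a window of SLC1A3 with the first 2 motifs and a window of SLC38A1 with the first are less certain. The bases just after their start sites were not found in an annotated transcript of the gene. SLC1A5 had matches only at starts within the gene, and none at its outermost start. Whether the carriers held more matches than all genes was not tested. SLC7A11 had no window in the table used. A match is a run of letters, and binding was not measured.

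SLC3A2 and SLC7A5, the heavy and light chain of the LAT1 exchanger, fell together in T98G and rose together in U251. SLC3A2 (ENSG00000168003, chromosome 11, 62856102 to 62888875, plus strand, GRCh38) was at 255, 199 and 232 CPM in T98G NC and at 42.9, 59.2 and 54.1 CPM in T98G PEPD-OE. U251 libraries were at 107, 112 and 101 CPM in NC and at 178, 217 and 189 CPM in PEPD-OE. No library of one treatment overlapped the other in either line. The fall in T98G was 4.35-fold (log2 -2.12, SE 0.17, adjusted p = 4.72e-24) and the rise in U251 was 1.83-fold (log2 0.87, SE 0.14, adjusted p = 8.61e-07). The changes differed by -2.99 on the log2 scale (T98G minus U251, SE 0.22, adjusted p = 5.44e-26).

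SLC7A5 (ENSG00000103257, chromosome 16, 87830023 to 87869488, minus strand) was at 253, 246 and 301 CPM in T98G NC and at 68, 74.8 and 82.6 CPM in T98G PEPD-OE. In U251 NC it was at 36.1, 18 and 30.7 CPM, and in U251 PEPD-OE at 90.4, 81.2 and 90.8 CPM. Again the treatments did not overlap in either line. It fell 3.55-fold in T98G (log2 -1.83, SE 0.15, adjusted p = 1.06e-21) and rose 3.06-fold in U251 (log2 1.61, SE 0.21, adjusted p = 1.80e-10). The difference between these changes was -3.44 (SE 0.26, adjusted p = 1.84e-25). The groups ordered as T98G NC (267 ± 30.1 CPM, SD, n = 3), U251 PEPD-OE (87.4 ± 5.43), T98G PEPD-OE (75.2 ± 7.3) and U251 NC (28.3 ± 9.28), and only the middle pair overlapped. The near-identical copies SLC7A5P1 and SLC7A5P2 had 0 counts in every library. How reads that match both a copy and SLC7A5 were counted was not examined, so this does not show that no reads were shared. All calls of SLC3A2 and SLC7A5 within the lines held under every alternative setting that tested them.

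Within a library the count of SLC3A2 was 0.857 times that of SLC7A5 in T98G NC and 3.93 times in U251 NC (geometric means). The log2 ratio was -0.22 ± 0.21 (SD, n = 3) in T98G NC and -0.54 ± 0.18 in T98G PEPD-OE, with overlapping libraries. It was 1.97 ± 0.58 in U251 NC and 1.15 ± 0.24 in U251 PEPD-OE, where the libraries did not overlap. An exact test of 3 libraries against 3 cannot go below p = 0.1, so ratios are given without one.

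**Figure D2:**
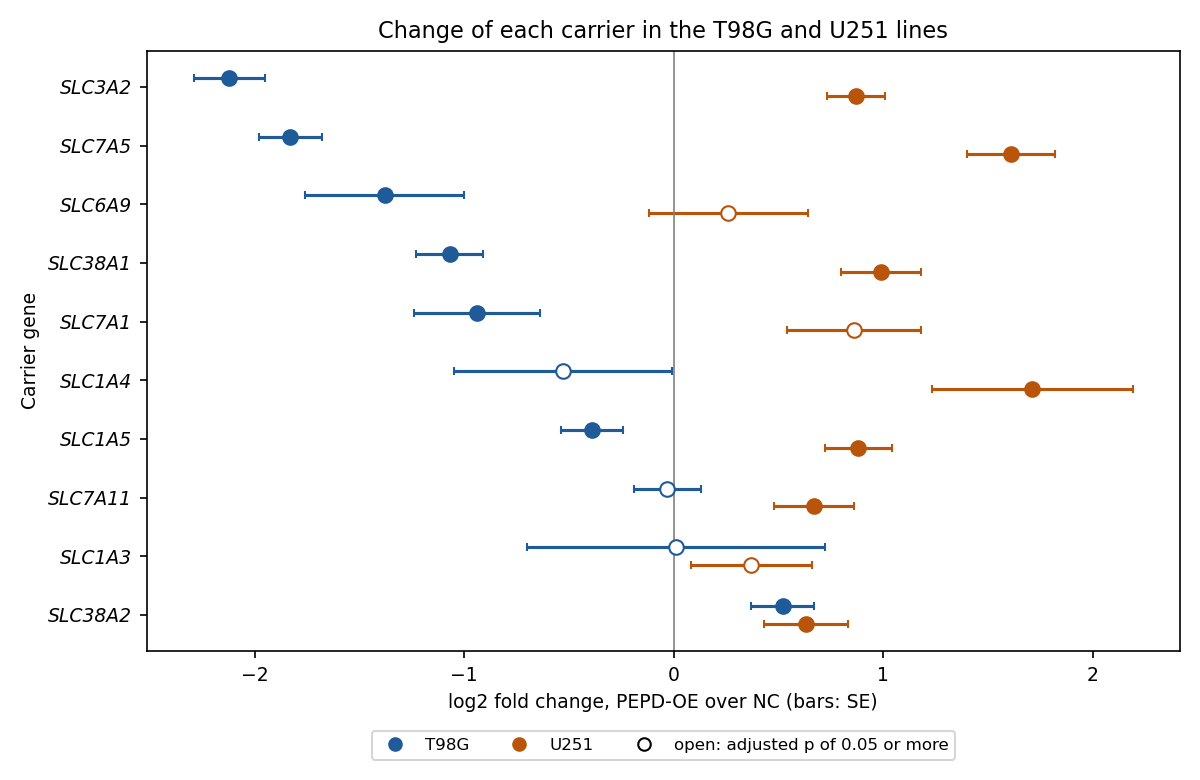
Log2 fold change of each carrier, PEPD-OE over NC, in T98G and in U251. Points are estimates of edgeR, bars are SE, and open points did not pass an adjusted p of 0.05. SLC3A2 (-2.12 and 0.87) and SLC7A5 (-1.83 and 1.61) lie far apart in the lines, while SLC38A2 (0.52 and 0.63) lies to the right of 0 in both.

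Counts under SLC7A11, the cystine light chain that shares SLC3A2 with LAT1, did not follow those of the heavy chain in T98G. SLC7A11 (ENSG00000151012, chromosome 4, 138164097 to 138242349, minus strand) was at 97.1, 110 and 130 CPM in T98G NC and at 139, 103 and 94 CPM in T98G PEPD-OE. These libraries overlapped, and the log2 fold change was -0.03 (SE 0.16, adjusted p = 0.91), its sign changing with the library left out. U251 cells had 38.5, 59.3 and 52.5 CPM in NC and 70.8, 86 and 80.1 CPM in PEPD-OE, without overlap. It rose there (log2 0.67, SE 0.19, adjusted p = 0.0128). That call was lost with DESeq2 and without U251 PEPD-OE replicate 2 or U251 NC replicate 1, adjusted p running from 0.00909 to 0.176 over the alternatives. The difference between the lines, -0.70 (SE 0.25, adjusted p = 0.0261), was lost with DESeq2, without a filter on low counts, without both T98G libraries numbered 2 and without any one of 5 libraries: T98G PEPD-OE replicate 2 or 3, T98G NC replicate 3, U251 PEPD-OE replicate 2 or U251 NC replicate 1 (adjusted p from 0.0087 to 0.192 over the alternatives).

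The log2 ratio of SLC7A11 to SLC3A2 counts was -1.40, -0.85 and -0.83 in T98G NC and 1.70, 0.80 and 0.80 in T98G PEPD-OE. SLC7A11 thus had fewer counts than the heavy chain in each T98G NC library and more in each T98G PEPD-OE library. In U251 the ratio was -1.48, -0.92 and -0.95 in NC and -1.33, -1.34 and -1.24 in PEPD-OE, with fewer counts than the heavy chain throughout. These ratios are not corrected for gene length: per kilobase of exon, SLC7A11 was at 11.6 ± 2.47 CPM (SD, n = 3) and SLC3A2 at 10.1 ± 1.61 CPM in T98G PEPD-OE, within their spread.

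**Figure D3:**
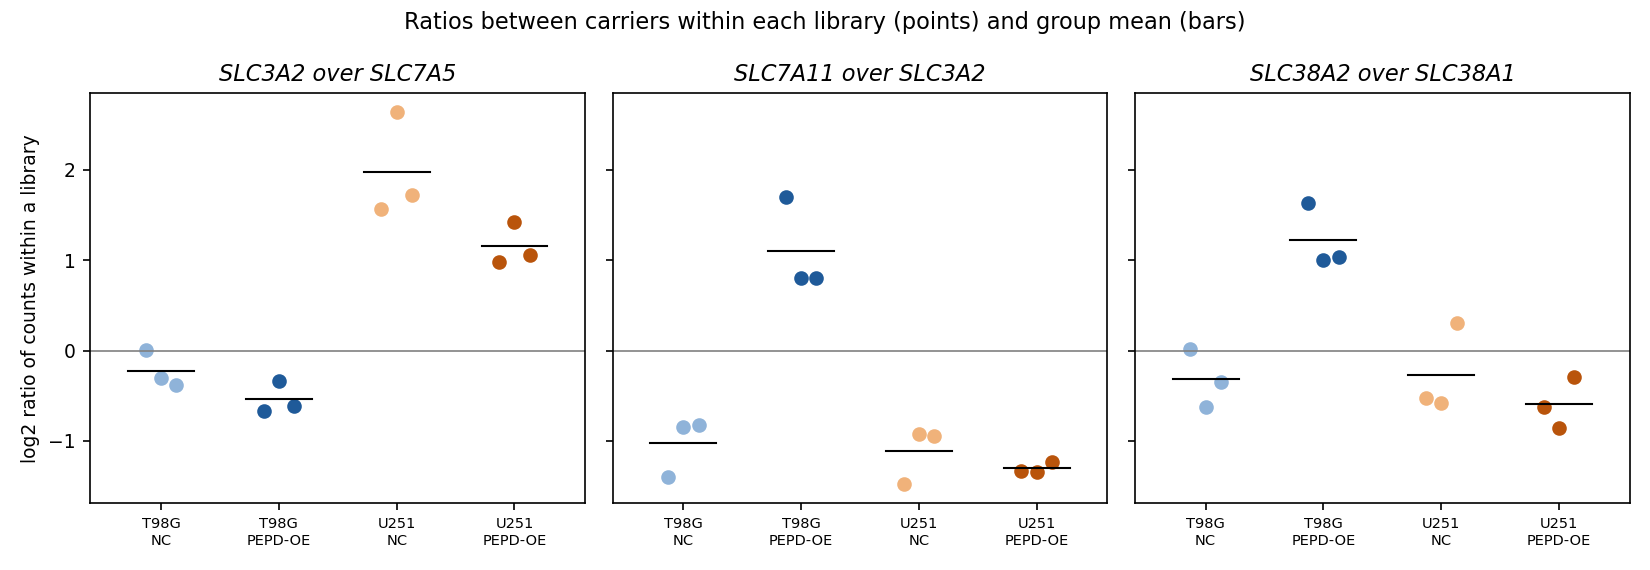
Log2 ratio of counts within each library for SLC3A2 over SLC7A5, SLC7A11 over SLC3A2 and SLC38A2 over SLC38A1. Points are libraries and bars are group means. SLC7A11 over SLC3A2 and SLC38A2 over SLC38A1 are raised in T98G PEPD-OE, with means of 1.10 and 1.22 against group means between -1.30 and -0.27 in the other 3 groups.

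Counts for some carriers stood beside a larger count on the opposite strand. The library kit kept strand, but the strand setting of the counting is not given in the sources used here. Reads of a gene and of its opposite partner therefore cannot be told apart with certainty. Whether that setting matched the kit was not tested. A mismatch would bear on the counts of every carrier, also of those without a partner. SLC7A11-AS1 (ENSG00000250033) shares 865 exon bases with SLC7A11, 8.97% of the exons of SLC7A11, and held 4473 counts over the 12 libraries against 774 under SLC7A11. It was at 646, 518 and 603 CPM in T98G NC and at 1244, 921 and 926 CPM in T98G PEPD-OE, and rose by 0.81 (SE 0.20, adjusted p = 0.0093). U251 cells had 120, 214 and 190 CPM of it in NC and 392, 347 and 256 CPM in PEPD-OE, and rose by 0.92 (SE 0.23, adjusted p = 0.0328). Counts under the antisense gene thus rose in both lines, whereas those under SLC7A11 were called in U251 alone. From which strand either set of reads came was not tested. The log2 ratio of SLC7A11-AS1 to SLC7A11 was 2.39 ± 0.30 (SD, n = 3) in T98G NC and 3.21 ± 0.08 in T98G PEPD-OE, and the libraries did not overlap.

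The other large partner lies at SLC1A5 (ASCT2), a sodium-dependent exchanger of glutamine and other neutral amino acids. SLC1A5 (ENSG00000105281, chromosome 19, 46774883 to 46788594, minus strand) was at 177, 181 and 149 CPM in T98G NC and at 118, 125 and 142 CPM in T98G PEPD-OE. The U251 libraries held 66.2, 67 and 87.1 CPM in NC and 99.4, 144 and 155 CPM in PEPD-OE. It rose 1.84-fold in U251 (log2 0.88, SE 0.16, adjusted p = 1.72e-05) and fell 1.31-fold in T98G (log2 -0.39, SE 0.15, adjusted p = 0.0378), with a difference between the lines of -1.26 (SE 0.22, adjusted p = 1.01e-06). The fall in T98G was lost with DESeq2, with either other filter on low counts, and without T98G PEPD-OE replicate 1 or 2 or T98G NC replicate 1 or 2 or both libraries numbered 2. Adjusted p ran from 0.00844 to 0.271 over the alternatives.

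AC008622.2 (ENSG00000275719), an unnamed gene in the deposited table, shares 780 exon bases with SLC1A5 on the opposite strand and held 16547 counts over the 12 libraries against 1109 under SLC1A5. It was at 2480, 2295 and 2247 CPM in T98G NC and at 2726, 2611 and 2311 CPM in T98G PEPD-OE, where it did not pass the test (log2 0.12, SE 0.08, adjusted p = 0.262). In U251 it was at 710, 1009 and 961 CPM in NC and at 1868, 1936 and 1804 CPM in PEPD-OE, and rose by 1.07 (SE 0.09, adjusted p = 3.69e-22). Counts under both genes thus rose in U251, and the fall called under SLC1A5 in T98G was not seen under its partner. SLC6A9 and SLC7A5 have smaller partners (CCDC24 with 61 counts and AC126696.2 with 4), and 6 of the 10 carriers have no opposite exon. Of those 6, SLC3A2, SLC7A1, SLC38A1 and SLC38A2 were called in T98G when only genes without such overlap were fitted, and SLC3A2, SLC1A4, SLC38A1 and SLC38A2 in U251. That fit used the same counts of these genes, so it cannot show whether the strand setting was right.

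**Figure D4:**
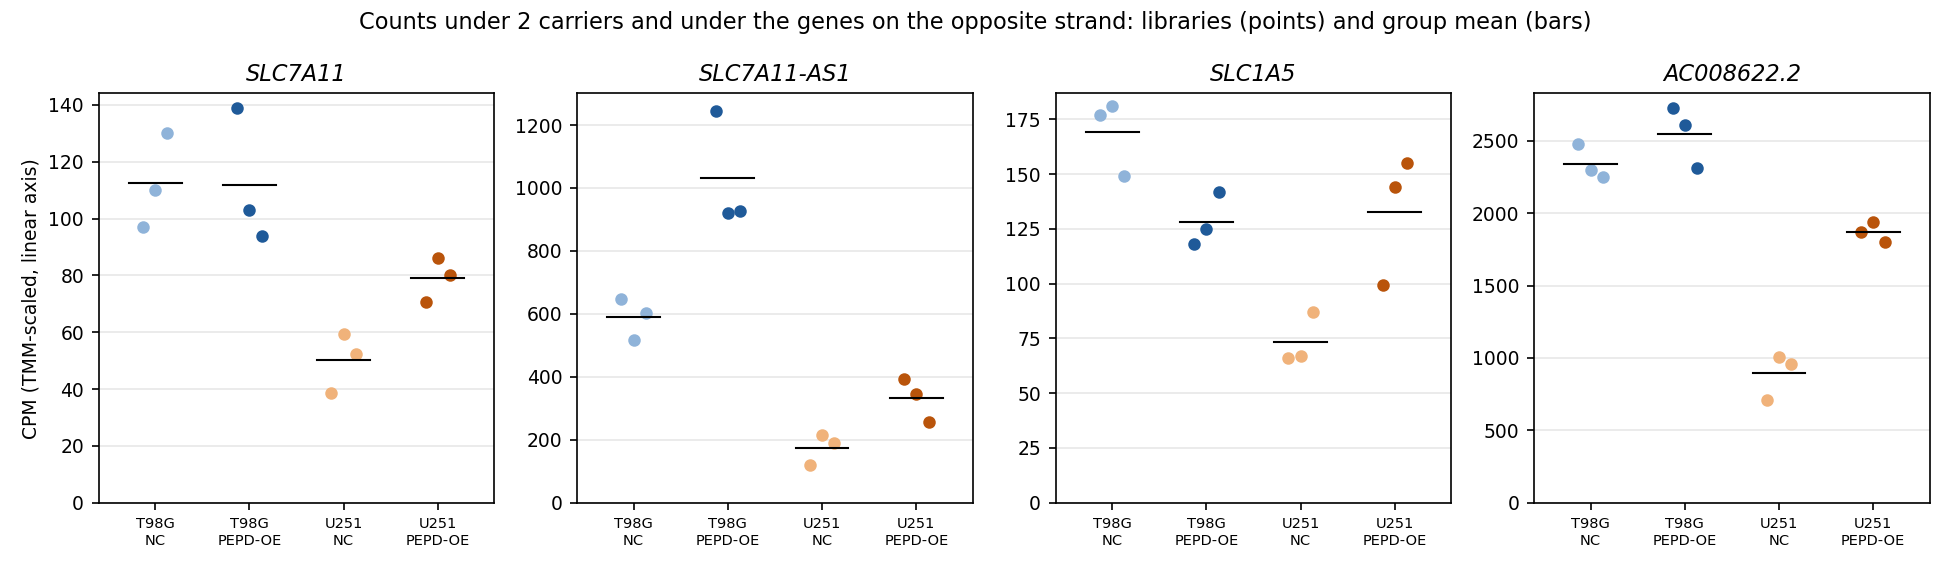
Level in every library, in CPM on a linear axis with its own scale in each panel, of SLC7A11 and SLC1A5 and of the genes opposite them, SLC7A11-AS1 and AC008622.2. Points are libraries and bars are group means. Both partners lie above their carrier in every library, and in T98G PEPD-OE SLC7A11-AS1 averages 1030 CPM against 112 CPM for SLC7A11.

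SLC38A1 and SLC38A2 (SNAT1 and SNAT2) are sodium-coupled importers of glutamine, alanine and other small neutral amino acids, and SNAT2 also carries proline. They parted in T98G and moved together in U251. SLC38A1 (ENSG00000111371, chromosome 12, 46183063 to 46270017, minus strand) was at 137, 200 and 173 CPM in T98G NC and at 74, 93.5 and 79.8 CPM in T98G PEPD-OE, and at 50.6, 54.1 and 42.3 CPM in U251 NC and 108, 117 and 70.5 CPM in U251 PEPD-OE. Neither line had overlapping treatments. It fell 2.1-fold in T98G (log2 -1.07, SE 0.16, adjusted p = 1.44e-08) and rose 1.99-fold in U251 (log2 0.99, SE 0.19, adjusted p = 2.74e-05), with a difference of -2.06 (SE 0.25, adjusted p = 2.06e-12). These calls held under every alternative setting.

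SLC38A2 (ENSG00000134294, chromosome 12, 46358189 to 46372867, minus strand) was at 139, 130 and 135 CPM in T98G NC and at 229, 187 and 162 CPM in T98G PEPD-OE, and at 34.9, 36.1 and 52.5 CPM in U251 NC and 70.8, 64.5 and 57.7 CPM in U251 PEPD-OE. Each PEPD-OE library lay above each NC library of its line. It rose by 0.52 in T98G (SE 0.15, adjusted p = 0.00279) and by 0.63 in U251 (SE 0.20, adjusted p = 0.0322), and the difference between these rises was -0.11 (SE 0.25, adjusted p = 0.783). The T98G call was lost with DESeq2 and without T98G PEPD-OE replicate 1, adjusted p running from 7.89e-04 to 0.0844 over the alternatives. The U251 call was lost with DESeq2, with either other filter, and without U251 PEPD-OE replicate 1 or 2 or U251 NC replicate 1 or 2 (0.0148 to 0.192 over the alternatives). The log2 ratio of SLC38A2 to SLC38A1 was 0.02, -0.62 and -0.35 in T98G NC and 1.63, 1.00 and 1.03 in T98G PEPD-OE, without overlap. In U251 it averaged -0.27 ± 0.50 (SD, n = 3) in NC and -0.59 ± 0.29 in PEPD-OE, and the libraries overlapped.

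SLC7A1 (CAT1) imports the cationic amino acids arginine and lysine, and SLC6A9 (GlyT1) is a sodium- and chloride-coupled glycine carrier. SLC7A1 (ENSG00000139514, chromosome 13, 29509410 to 29595688, minus strand) was at 33.8, 35.1 and 41.4 CPM in T98G NC and at 22.2, 18.7 and 17.1 CPM in T98G PEPD-OE, and fell (log2 -0.94, SE 0.30, adjusted p = 0.0102). In U251 it was at 24.1, 7.73 and 12.8 CPM in NC and at 21.1, 31 and 28.8 CPM in PEPD-OE, overlapping through NC replicate 1 (log2 0.86, SE 0.32, adjusted p = 0.0739). The difference between the lines was -1.79 (SE 0.44, adjusted p = 5.94e-04). In T98G the call was lost with DESeq2 and without T98G NC replicate 3 (adjusted p from 0.00549 to 0.141 over the alternatives). Without U251 NC replicate 1 the U251 change was 1.40 and passed the test (0.0152 to 0.385 over the alternatives).

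SLC6A9 (ENSG00000196517, chromosome 1, 43991500 to 44031467, minus strand) was at 19, 29.9 and 30.1 CPM in T98G NC and at 14.8, 6.23 and 9.97 CPM in T98G PEPD-OE, without overlap, and fell by 1.38 (SE 0.38, adjusted p = 0.00208). The call was lost with DESeq2 and without both T98G libraries numbered 2 (adjusted p from 0.00112 to 0.0821 over the alternatives). In U251 it was at 13.2, 10.3 and 15.4 CPM in NC and at 13.6, 13.1 and 19.2 CPM in PEPD-OE, with overlap (log2 0.26, SE 0.38, adjusted p = 0.777). The difference between the lines, -1.63 (SE 0.54, adjusted p = 0.0136), was lost with DESeq2 and without T98G PEPD-OE replicate 2, both T98G libraries numbered 2 or U251 PEPD-OE replicate 3 (0.00829 to 0.136 over the alternatives).

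SLC1A4 (ASCT1), an exchanger of serine, alanine and other small neutral amino acids, and SLC1A3 (EAAT1, or GLAST), the sodium-coupled glutamate carrier typical of astrocytes, had the fewest counts. SLC1A4 (ENSG00000115902, chromosome 2, 64988477 to 65023865, plus strand) was at 2.41, 6.44 and 6.4 CPM in U251 NC and at 16.6, 15.5 and 18.2 CPM in U251 PEPD-OE, from 12 and 41 counts in all. It rose 3.26-fold (log2 1.71, SE 0.48, adjusted p = 0.0105), a call lost without U251 NC replicate 1 (0.0104 to 0.116 over the alternatives). In T98G it was at 12.7, 9.1 and 11.3 CPM in NC and at 7.4, 10.9 and 4.27 CPM in PEPD-OE, with overlap (log2 -0.53, SE 0.52, adjusted p = 0.469). The difference between the lines was -2.24 (SE 0.71, adjusted p = 0.0102), which DESeq2 did not call (0.00758 to 0.0876 over the alternatives).

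SLC1A3 (ENSG00000079215, chromosome 5, 36606355 to 36688334, plus strand) did not pass the test within either line. It was at 4.22, 3.9 and 3.76 CPM in T98G NC and at 2.96, 3.12 and 5.7 CPM in T98G PEPD-OE, from 8 counts in each group, so that a change was hardly detectable at this depth (log2 0.01, SE 0.71, adjusted p = 0.995). In U251 it was at 21.7, 24.5 and 23.1 CPM in NC and at 30.1, 20.3 and 38.4 CPM in PEPD-OE, with overlap (log2 0.37, SE 0.29, adjusted p = 0.522). The difference of the changes was -0.36 (SE 0.79, adjusted p = 0.787).

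Between the lines, most carriers were higher in T98G in the NC cells, and the PEPD-OE cells showed no such excess. These comparisons use the same libraries as those within the lines and are not independent of them. In NC cells, 8 carriers were higher in T98G, SLC1A3 was lower, and SLC1A4 did not pass the test, where 24.4% of all genes tested were higher, 24.3% were lower and 48.7% were called in all. The libraries of the lines did not overlap for any of the 10, as for 55.1% of all genes tested. The median log2 difference, T98G minus U251, was 1.20, against -0.00 over all genes tested. SLC7A5 was 9.36-fold higher in T98G NC than in U251 NC (log2 3.23, SE 0.18, adjusted p = 1.85e-38), SLC38A1 3.52-fold (log2 1.82, SE 0.17, adjusted p = 2.76e-18) and SLC38A2 3.27-fold (log2 1.71, SE 0.18, adjusted p = 2.34e-15). SLC1A3 was 5.67-fold lower in T98G NC (log2 -2.50, SE 0.47, adjusted p = 2.30e-06). SLC6A9, 2.08-fold higher (log2 1.06, SE 0.35, adjusted p = 0.00717), was not called by DESeq2 (0.00431 to 0.133 over the alternatives).

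In PEPD-OE cells 5 carriers differed between the lines, 2 of them higher and 3 lower in T98G, where 26.3% of all genes tested were higher, 26.3% lower and 52.6% called. The median log2 difference was -0.37, against -0.04 over all genes tested. SLC38A2 was 3.02-fold higher in T98G (log2 1.59, SE 0.16, adjusted p = 3.44e-17). SLC3A2 was 3.74-fold lower (log2 -1.90, SE 0.17, adjusted p = 3.49e-21) although it was 2.12-fold higher in T98G among NC cells (log2 1.08, SE 0.14, adjusted p = 2.92e-11). SLC1A3 was 7.27-fold lower in T98G (log2 -2.86, SE 0.45, adjusted p = 1.12e-08). SLC7A11 was higher by 0.49 (SE 0.17, adjusted p = 0.00955), a call lost with DESeq2 and without T98G PEPD-OE replicate 1 (0.00423 to 0.192 over the alternatives). SLC1A4 was lower in T98G (log2 -1.16, SE 0.46, adjusted p = 0.0257), which was lost with DESeq2, without a filter, and without T98G PEPD-OE replicate 1 or 3 or U251 PEPD-OE replicate 3 (0.0184 to 0.184). SLC7A5 (-0.22, adjusted p = 0.311), SLC1A5 (-0.07, adjusted p = 0.731) and SLC38A1 (-0.24, adjusted p = 0.242) did not pass the test. Without U251 PEPD-OE replicate 3, SLC38A1 passed it at -0.46 (0.0302 to 0.728 over the alternatives).

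Levels of different carriers were compared per kilobase of exon. AC008622.2 lies opposite 23.4% of the exon bases of SLC1A5. Whether its reads entered the level of SLC1A5, and so the shares, was not tested. By its mean, SLC7A5 was highest in T98G NC with 56.2 ± 6.34 CPM per kb (SD, n = 3), 26.4% of the sum over the 10 genes, before SLC1A5 with 50.7 ± 5.16 and SLC3A2 with 44.2 ± 5.49, but the shares of SLC7A5 (24.9 to 29.1%) and SLC1A5 (20.6 to 26.1%) overlapped. In T98G PEPD-OE, SLC1A5 (38.6 ± 3.76 CPM per kb, 32.2% of the sum) and SLC38A2 (29.2 ± 5.12, 24.4%) came first, and SLC7A5 and SLC3A2 held 13.2% and 8.42%. In U251, SLC1A5 and SLC3A2 came first in both groups, with 29.7% and 28.1% of the sum in NC and 28.8% and 27.4% in PEPD-OE. The share of SLC7A5 was 8.06% in U251 NC and 13.5% in U251 PEPD-OE, and the libraries did not overlap (5.4 to 10.6% and 11.8 to 15.3%). SLC1A3 was lowest of the 10 in both T98G groups and SLC1A4 in both U251 groups.

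Genes with the most similar levels over the 12 libraries were ranked by Pearson's r of log2 CPM, as a description. For SLC7A5 they were STC2 (r = 0.968), COTL1 (0.964) and FOSL1 (0.956), and for SLC3A2 they were UHRF1 (0.983), MYBBP1A (0.982) and NAXE (0.974). For SLC38A1 the nearest was EIF2S1 (0.957), for SLC38A2 NDRG1 (0.981), for SLC1A5 FBL (0.92), for SLC7A11 TRIM44 (0.943), for SLC7A1 CTPS1 (0.927) and for SLC6A9 NUPR1 (0.895). SLC1A3 was nearest to AC008011.2 (0.987) and SLC1A4 to a gene without a symbol (0.911). The 12 points fall into 4 groups and share their libraries and scaling.

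Other carriers of amino acids were mostly too low to test. Of 49 other carriers of the surface and lysosome, 8 were tested. In T98G 2 rose and none fell (median 0.17), where 17.7% of all genes tested rose, 14.7% fell and 32.3% were called in either direction. In U251 1 fell and none rose (median 0.07), where 4.42% of all genes tested fell, 4.13% rose and 8.55% were called. The largest change was SLC6A6, the taurine carrier, which rose from 123 ± 9.26 to 416 ± 21.2 CPM in T98G (log2 1.75, SE 0.14, adjusted p = 2.87e-24) and has GRIP2 opposite. Of 12 mitochondrial carriers 8 were tested: SLC25A13, an aspartate-glutamate carrier, fell in T98G (log2 -0.96, SE 0.33, adjusted p = 0.0173), SFXN3 rose (log2 0.82, SE 0.33, adjusted p = 0.0493), and none passed the test in U251 by edgeR, also at an unadjusted p under 0.05.

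Genes of the ATF4 response were mostly lower in T98G PEPD-OE, as were the carriers. Of 30 listed genes 20 were tested: 11 fell and 2 rose in T98G (median -0.84), where 14.7% of all genes tested fell and 17.7% rose, and 5 rose and none fell in U251 (median 0.51), where 4.13% rose and 4.42% fell. The genes that rose in T98G were CEBPB (log2 1.45, SE 0.16, adjusted p = 2.43e-13), the gene of a C/EBP factor, and KLHL24 (log2 1.17, SE 0.39, adjusted p = 0.0126). STC2, a secreted glycoprotein of that response, was at 335 ± 13 CPM in T98G NC and 60.4 ± 16 in T98G PEPD-OE (log2 -2.46, SE 0.16, adjusted p = 7.74e-32), and at 14.2 ± 3.43 and 41.8 ± 4.39 CPM in U251 (log2 1.53, SE 0.28, adjusted p = 1.06e-05). PSAT1, of serine synthesis, fell from 67.2 ± 8.52 to 5.96 ± 2.62 CPM in T98G (log2 -3.47, SE 0.34, adjusted p = 2.96e-17). In U251 the pseudokinase gene TRIB3 rose from 6.23 ± 1.9 to 22.4 ± 8.26 CPM (log2 1.86, SE 0.41, adjusted p = 6.07e-04). ATF4 itself fell in T98G from 198 ± 25.1 to 118 ± 21.7 CPM (log2 -0.76, SE 0.15, adjusted p = 9.92e-06) and did not pass the test in U251 (log2 0.29, adjusted p = 0.234). Of the 12 listed regulators of carrier genes, ATF4 among them, 8 were tested, with 1 higher and 2 lower in T98G and 2 higher in U251 (medians -0.29 and 0.47). MYC rose in U251 from 10.1 ± 1.59 to 24.1 ± 8.34 CPM (log2 1.21, SE 0.35, adjusted p = 0.0138) and was at -0.03 on the log2 scale in T98G (adjusted p = 0.951).

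Genes of the NRF2 response and of glutathione metabolism did not share the fall of SLC3A2 in T98G. Of 27 listed genes 21 were tested. In T98G 18 rose and none fell (median 1.27), where 17.7% of all genes tested rose and 14.7% fell. In U251 3 rose and 3 fell (median -0.01), where 4.13% of all genes tested rose and 4.42% fell. GCLM, the regulatory subunit of the enzyme that starts glutathione synthesis, rose in T98G from 37.7 ± 5.09 to 146 ± 17 CPM (log2 1.95, SE 0.20, adjusted p = 1.33e-16). AKR1C2, an aldo-keto reductase whose reads can be shared with close paralogs, rose from 91.3 ± 12.3 to 838 ± 51.9 CPM (log2 3.22, SE 0.14, adjusted p = 3.35e-50). In U251 the thioredoxin reductase gene TXNRD1 rose from 157 ± 9.66 to 267 ± 12.7 CPM (log2 0.77, SE 0.12, adjusted p = 1.46e-07).

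Of 21 enzymes of glutamine, glutamate and branched-chain amino acids, 15 were tested. In T98G 3 rose and 5 fell (median -0.23), where 17.7% of all genes tested rose and 14.7% fell. In U251 3 rose and 1 fell (median 0.40), where 4.13% of all genes tested rose and 4.42% fell. CTPS1, which uses glutamine to make CTP, fell in T98G (log2 -1.22, SE 0.24, adjusted p = 1.19e-05) and rose in U251 (log2 0.94, SE 0.25, adjusted p = 0.00712), as did the purine enzyme gene PFAS (log2 -1.68, SE 0.41, adjusted p = 4.86e-04, and log2 1.15, SE 0.39, adjusted p = 0.0477). GLUL, glutamine synthetase, rose in T98G from 34.9 ± 13.8 to 98.9 ± 5.79 CPM (log2 1.42, SE 0.21, adjusted p = 7.97e-09). Of 36 genes of amino acid sensing and mTORC1 control 22 were tested, to be read against the same shares. In T98G 1 was higher and 2 were lower (median 0.11), and in U251 2 were lower (median -0.06). Among them LAMTOR1, a subunit of the lysosomal Ragulator complex, fell in T98G from 44.2 ± 6.78 to 23.1 ± 5.98 CPM (log2 -0.91, SE 0.29, adjusted p = 0.00788). The other LAMTOR genes tested, LAMTOR2, LAMTOR4 and LAMTOR5, did not pass the test there (log2 0.24, -0.08 and 0.38). NPRL3 rose in T98G (log2 0.60, SE 0.13, adjusted p = 1.04e-04) and fell in U251 (log2 -0.57, SE 0.14, adjusted p = 0.00284).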

How the data were processed

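The authors deposited 1 table of raw counts per Ensembl gene, with 12 columns of whole numbers. Per the labels' protocols, mRNA was captured with oligo(dT) beads and dUTP-marked, paired-end libraries were sequenced. Per the submitters' processing notes, FastQC, fastp, HISAT2, featureCounts, Subread and GRCh38 were used. Neither the annotation release nor the strand setting is given in the sources used here. Columns were matched to samples by library name.

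Genes were kept by filterByExpr (minimum count 10), scaled by TMM and fitted in edgeR 4.0.16 (R 4.3.3) with robust quasi-likelihood, 1 mean per group and 8 residual degrees of freedom. P-values, two-sided, were adjusted by Benjamini and Hochberg over 8773 genes and calls were made at 0.05. SE is the size of the log2 fold change divided by the root of F. Positions and exons came from GENCODE release 29 (GRCh38), with 58228 of the IDs. Start-site windows came from RefSeq. No replicates agreed within sampling noise. Floors cover counting error only.

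The carriers and lists were chosen with earlier results of these data known. Named genes were the carriers, PEPD, opposite-strand genes, the 3 nearest in level to each carrier, and up to 6 called genes per list and line with the largest changes and a mean of at least 2 CPM, of which a part is named. ATF4 and SOX9 in U251 and MYC and GFAP in T98G are given beside their calls in the other line. TALAM1, MALAT1, BEST1, CEBPB, KLHL24, LAMTOR2, LAMTOR4, LAMTOR5, SLC7A5P1 and SLC7A5P2 were added after their values were seen or as markers. So were the CD44, NES, S100B, AQP4, ALDH1L1, RBFOX3, SNAP25, PTPRC, CD14, AIF1, PECAM1, C1QA and C1QB markers. Alternatives were other scalings, filters, DESeq2 1.42.0, each line alone, a replicate block, robust estimation off, genes without opposite overlap, and each library left out. Added after seeing the data was a fit without both T98G libraries numbered 2.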

Additional observations from a re-analysis of the deposited data

Results flagged for a closer look

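The change with PEPD over-expression differed between the lines, in edgeR's test of the difference itself, for 8 carriers. As the T98G log2 fold change minus that of U251, the values were SLC3A2 -2.99, SLC7A5 -3.44, SLC7A11 -0.70, SLC7A1 -1.79, SLC1A4 -2.24, SLC1A5 -1.26, SLC38A1 -2.06 and SLC6A9 -1.63. SLC7A5, SLC3A2, SLC38A1 and SLC1A5 were each called lower in T98G and higher in U251.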

How the results depend on the processing

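Counts of carriers called kept within 1.5 times of those reported (7 in T98G, 7 in U251, 8 for the difference between lines, 9 between NC lines, 5 between PEPD-OE lines) except under these settings. With genes without opposite-strand overlap, which leaves 6 carriers to test, 4 were called in T98G, 4 in U251, 4 for the difference and 5 between NC lines. With DESeq2, 3 were called in T98G, 4 in U251 (where 4 carriers had no adjusted p), 5 for the difference and 3 between PEPD-OE lines. With 1 library left out the counts ran from 5 to 7 in T98G, 5 to 7 in U251, 6 to 8 for the difference, 9 to 9 between NC lines and 3 to 5 between PEPD-OE lines. The lowest came without T98G PEPD-OE replicate 1 in T98G and between PEPD-OE lines, without U251 PEPD-OE replicate 2 or U251 NC replicate 1 in U251, and without T98G PEPD-OE replicate 2 for the difference. With both T98G libraries numbered 2 left out, chosen after seeing the data, the counts were 5, 7, 6, 9 and 5. Deviations of log2 CPM from the group mean correlated at -0.042 to 0.058 between same-numbered libraries of a line, none over 0.1. The numbers were therefore not taken to pair samples. Pairing is not excluded by this, since counting error makes up much of such deviations. The highest value was that of both T98G libraries numbered 2, which held leukocyte and endothelial markers. With the replicate block the counts were 7, 7, 8, 9 and 5. Signs turned for changes that had not passed the test: SLC7A11 in T98G was 0.02, 0.09 and 0.09 without T98G PEPD-OE replicate 2, PEPD-OE replicate 3 or NC replicate 3 (-0.21 to 0.09 over all libraries left out). SLC1A3 in T98G was -0.03 with upper-quartile scaling and -0.35, -0.00 and -0.03 without T98G PEPD-OE replicate 3, NC replicate 2 or NC replicate 3 (-0.35 to 0.18). The difference of SLC38A2 between lines was 0.00 without T98G PEPD-OE replicate 3 (-0.33 to 0.00), and SLC1A5 between PEPD-OE lines was 0.05 without U251 PEPD-OE replicate 3 (-0.23 to 0.05). The cause of the other shifts was not tested. Depth limits SLC1A3 in T98G and SLC1A4 most, with 2 to 4 and 3 to 9 counts in a T98G library.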
